A study of Mus musculus with 6 samples.

Results

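Of the circular RNAs (circRNAs) measured in mouse hippocampus, 128 had a signal in every Nrf2 knockout that was clearly above the signal in every wild type. They were chosen by their measured values, as follows. A circRNA probe could pass where its spot was free of outlier flags and well above background on all 6 arrays, and where it was not among the 300 probes with the highest wild-type mean. Its value on an array was the log2 of the processed signal minus the log2 of the array's 75th percentile over circRNA probes, so that a value below 0 lies under that percentile. The lowest of the 3 knockout values had to lie at least 0.5 above the highest of the 3 wild-type values, a distance called the gap here, which is at least 1.41-fold in signal. Of 14236 circRNA probes 12217 could pass, and 128 did, or 1.05%. The difference between genotypes in these 128 is therefore a description of the selection and supports nothing further.

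Both groups were male mice of the outbred ICR strain, 3 to 4 months old, 3 wild type and 3 carrying the Nrf2 gene knockout, written as Nrf2 (-/-) in the study's design, and no treatment is named in the labels. Which allele was used, and whether the mice were littermates, is not given in the sources used here. Total RNA from the hippocampus of each mouse was digested with RNase R and hybridised to 1 array, so a replicate is a mouse. The study's question was how hippocampal circRNA profiles differ with and without Nrf2.

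Nrf2, the product of Nfe2l2, is a transcription factor held in check by Keap1 and released by oxidative stress, when it switches on antioxidant and detoxification genes. A circRNA is made when a splice donor is joined back to an upstream acceptor of the same transcript. The closed ring has no free ends, resists exonucleases such as RNase R, and is lost slowly from cells that do not divide, and neurons are known for many abundant circRNAs. In whole tissue, a higher signal can come from more cells that carry the RNA or from more RNA per cell, and these cannot be told apart here. The files name each circRNA by its probe alone. Host genes, exon structure and sequences of the 128 are not given in the files used here, so the groups below are formed by how the values behave.

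The knockout arrays were not all scanned together. Per the file headers, scan 1 held the 3 wild types with knockout 1, while scan 2 held the other two knockouts. The 75th percentile lay between 231 and 481 intensity units, and 12783 to 13590 circRNA probes per array were well above background. Nfe2l2 was not among the genes with a named probe, and no check of the genotypes by their target was made. Of the tissue's marker genes listed for a check, 4 had an mRNA probe. Apoe of astrocytes, at 2.11 to 2.65, Mbp of myelin, at -1.10 to 0.34, and Chgb of neuronal secretory granules, at -2.02 to -0.63, were well above background on all 6 arrays. Gabrg1, a GABA receptor subunit, was so on 5, at -7.89 to -4.09. The lowest values of Mbp, Chgb and Gabrg1 were all on knockout 3, and their part in the circRNA values was not tested. Of 20 genes listed for the Nrf2 pathway only Prdx2, a peroxiredoxin, and Gsta4, a glutathione transferase, had a probe, and 0 passed in limma over all probes. Prdx2 lay at -2.05, -1.90 and -1.78 in wild type and -2.26, -2.37 and -2.20 in knockout (limma adjusted p = 0.194). Gsta4 lay at -3.68, -3.49 and -2.68 in wild type and -3.06, -3.73 and -3.21 in knockout (limma adjusted p = 0.934).

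Across the 128 circRNAs the median log2 signal was -1.68, -1.79 and -1.78 on wild types 1 to 3. It was -0.78, -0.60 and -0.73 on knockouts 1 to 3. Over all 12217 circRNAs that could pass, the medians lay between -1.34 and -1.30 on every array. In intensity units, the median processed signal of the 128 was 125, 108 and 67.2 in wild type and 223, 317 and 199.6 in knockout. The median log2 difference of the genotype means was 1.03, with a range of 0.61 to 3.15, against 0.06 over all that could pass. In fold terms the 128 were 1.53 to 8.88 times higher in the knockout, with a median of 2.04. A difference of at least 1 was found for 71 of them, and for 1.21% of all that could pass.

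**Figure D1:**
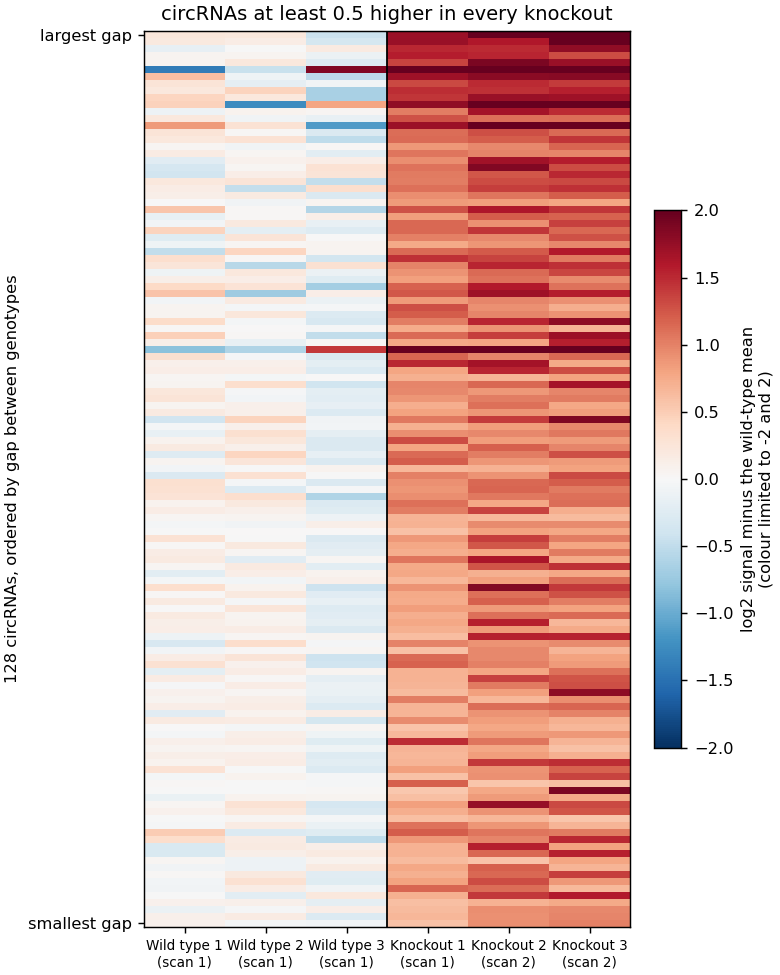
Each of the 128 circRNAs is a line and each of the 6 arrays a column, and the colour gives the log2 signal minus the mean of the 3 wild types. Every knockout cell is red by the choice of members, and knockout 1 has the palest of the 3 knockout cells for 85 of the 128.

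The largest gap was that of ASCRP4010314. Its log2 signal was -2.57, -2.58 and -3.23 in wild types 1 to 3 and -1.08, -0.64 and -0.57 in knockouts 1 to 3. The gap was 1.49, and the means differed by 2.03 (4.08-fold). On the scanner's own scale the processed signal was 67.6, 62.6 and 24.7 in wild type and 181, 310 and 224 in knockout. ASCRP4011695 followed with -1.75, -1.80 and -2.29 in wild type and -0.22, -0.34 and 0.11 in knockout, a gap of 1.41. For both, wild type 3 was the lowest array, and the 3 knockouts lay closer to each other than to any wild type.

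ASCRP4010915 had a gap of 1.32 and was among the dimmest of the 128, at -5.06, -4.91 and -4.73 in wild type and -3.39, -3.41 and -3.13 in knockout. Its processed signal was only 12.1, 12.4 and 8.72 units in wild type, against 36.5, 45.3 and 37.7 units in knockout. ASCRP4004916 lay at -2.72, -2.71 and -2.88 in wild type and -1.20, -1.24 and -1.46 in knockout, with ranges of 0.17 and 0.26 within the genotypes and a gap of 1.25. Here knockout 1 was the highest array. ASCRP4012247 was measured far above background, at 0.66, 0.81 and 0.34 in wild type and 1.96, 2.49 and 2.33 in knockout, with a gap of 1.14. Its processed signal was 634, 657 and 293 units in wild type and 1484, 2708 and 1667 units in knockout. ASCRP4009903 lay at -1.87, -2.31 and -2.20 in wild type and -0.80, -0.63 and -0.73 in knockout, with a gap of 1.07.

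These 6 circRNAs were also the only ones of the 128 that limma called higher at an adjusted p of 0.05. Limma's fit over all arrays used the same contrast as the selection, and it called 6 of 13396 circRNAs higher, or 0.0448%, so that all its higher calls were among the 128. The log2 differences were 2.03 (SE 0.244) for ASCRP4010314, 1.80 (SE 0.215) for ASCRP4011695, 1.59 (SE 0.174) for ASCRP4010915, 1.47 (SE 0.162) for ASCRP4004916, 1.66 (SE 0.211) for ASCRP4012247 and 1.40 (SE 0.178) for ASCRP4009903. The limma adjusted p was 0.0452 for each, and it lay between 0.0452 and 0.0998 over the 128. An unadjusted limma p under 0.05 was reached by all 128, and by 1607 of the 13396 in the same direction, and nothing is read from this count. The 6 calls lay near the threshold, and the number of calls changed when 1 array was left out. The median difference of the 128 was then 0.94 to 1.11, and each such fit has fewer arrays to estimate its error from. A lost call therefore does not show that it rested on the array left out. Dropping wild type 1, knockout 2 or knockout 3 gave 0 calls, over the 128 and over all circRNAs. Dropping wild type 3 gave 2 calls among the 128 and 4 over all, and none of the 6 was among them, with limma adjusted p-values of 0.116 to 0.163. Dropping wild type 2 gave 26 calls among the 128 and 45 over all. Dropping knockout 1 gave 117 among the 128 and 715 over all, but scan and genotype then divide the arrays identically. In the 3 fits with 0 calls all 128 had an unadjusted limma p under 0.05 as higher, a count set by the selection, and 1080, 1040 and 1174 of all circRNAs did so without wild type 1, knockout 2 and knockout 3.

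**Figure D2:**
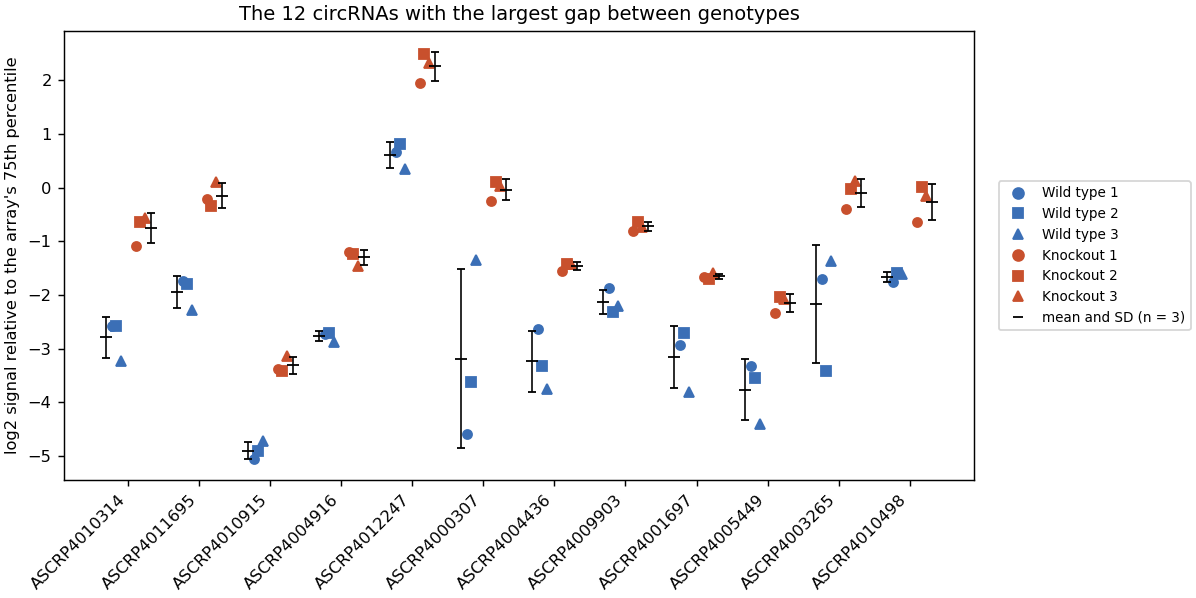
For the 12 circRNAs with the largest gap, the log2 signal (75th percentile of the array at 0) is plotted for each wild type (blue) and knockout (red), with the mean and SD of 3 mice beside the points. The gap runs from 1.49 for ASCRP4010314 to 0.96 for ASCRP4010498, and ASCRP4000307 and ASCRP4003265 have the widest spread in wild type.

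The size of the difference and the size of the gap ranked the circRNAs differently, because a few had wild types that lay far apart. Only 5 of the 128 differed by at least 4-fold between the genotype means, and ASCRP4010314 was the sole one of these with a wild-type range under 1. ASCRP4000307 had the largest difference, 3.15 (8.88-fold). Its wild types lay at -4.59, -3.63 and -1.34, a range of 3.25, while its knockouts lay together at -0.25, 0.11 and 0.03. Measured from wild type 3, the knockouts were higher by as little as 1.09. The genotype means were -3.19 ± 1.67 and -0.04 ± 0.19 (SD, n = 3 each; limma adjusted p = 0.0715).

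ASCRP4003265 showed the same shape with another array apart, at -1.70, -3.42 and -1.37 in wild type and -0.39, -0.03 and 0.12 in knockout. In ASCRP4011706, named for its size after the values were seen, wild type 3 was again the highest at -0.73, with wild types 1 and 2 at -2.96 and -2.75 and the knockouts between -0.07 and 0.14. In ASCRP4011368, named likewise, wild type 3 was the lowest at -2.01, with -0.02 and -0.59 in the others and 0.84, 1.52 and 1.47 in knockout. A wild-type range over 1 was found in 10 of the 128, and wild type 3 was the array farthest from the group's median in 7 of them. A knockout range over 1 was found in 2. The shares of all circRNAs that could pass with such ranges are not given here.

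Among the rest of the 12 with the largest gaps, ASCRP4004436, ASCRP4001697 and ASCRP4005449 had tight knockouts and spread wild types. ASCRP4001697 lay at -1.67, -1.69 and -1.60 in knockout, a range of 0.10, and at -2.94, -2.71 and -3.80 in wild type. ASCRP4004436 lay at -1.55, -1.43 and -1.42 in knockout and at -2.63, -3.32 and -3.75 in wild type. ASCRP4005449 lay at -2.34, -2.04 and -2.07 in knockout and at -3.33, -3.54 and -4.41 in wild type. In all 3 the lowest wild type was wild type 3. ASCRP4010498 was the reverse, with wild types at -1.76, -1.60 and -1.62 and knockouts at -0.64, 0.01 and -0.16.

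Wild type 3 was the lowest wild type for 81 of the 128, wild type 1 for 28 and wild type 2 for 19. The highest wild type, from which the gap is measured, was wild type 2 for 57, wild type 1 for 46 and wild type 3 for 25. The same shares over all circRNAs that could pass are not given here, so these counts are not read as a trait of the 128. Because the rule looks at the highest wild type only, it is open to circRNAs that are low on 1 wild-type array. Leaving out an array loosens the rule, and more circRNAs then passed. The count was 226, 311 and 159 after dropping wild type 1, 2 or 3 in turn, and 642, 158 and 195 after dropping knockout 1, 2 or 3. Without knockout 1, scan and genotype divide the arrays identically.

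For most of the 128, though, the step was wider than the scatter on either side. The gap exceeded the range within both genotypes in 74 of them, and in 1.74% of all circRNAs that could pass. In 54 the ranges of both genotypes were at most 0.5, and the share over all is not given here. The median SD between mice was 0.22 in wild type and 0.19 in knockout for the 128, against 0.18 and 0.27 for all that could pass. The wild-type SD was larger than the knockout SD in 50.8% of the 128 and in 34.4% of all. The rule looks only at the highest wild type and the lowest knockout, so these values are shaped by the selection.

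The tightest wild types included those of ASCRP4000771, ASCRP4004202 and ASCRP4012566. ASCRP4000771 lay at -2.37, -2.36 and -2.33 in wild type, and at -1.81, -1.59 and -0.48 in knockout, the widest knockout range of the 128 at 1.33. ASCRP4012566 lay at -3.37, -3.42 and -3.34 in wild type and at -2.81, -2.60 and -2.72 in knockout. The first rests much of its mean on knockout 3, and the second is an even step of 0.67 on the log2 scale.

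Knockout 1 is the one knockout scanned with the wild types, so it gives the difference within a scan. By the rule it lay at least 0.5 above every wild type for all 128. Over all that could pass, 342 circRNAs (2.80%) did so on knockout 1, and 639 (5.23%) did so on both knockouts of scan 2. The 128 are the overlap of these lists, 37.4% of the first and 20.03% of the second, and both share the wild-type arrays. The median difference of knockout 1 from the wild-type mean was 0.89 (1.86-fold) over the 128, and 0.01 over all. For the mean of knockouts 2 and 3 it was 1.11 (2.16-fold), and 0.08 over all. The difference on knockout 1 was a median of 0.80 of that on knockouts 2 and 3, from 0.39 to 2.05.

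Knockout 1 was the lowest knockout for 85 of the 128, and for 38.2% of all circRNAs that could pass. It lay above the mean of knockouts 2 and 3 in 27 of the 128, and in 46.4% of all. When the fit also held a term for the scan, it called 0 of the 128 and 0 of all circRNAs in limma, since the genotype term then rests on knockout 1 against 3 wild types. In that fit 120 of the 128 had an unadjusted limma p under 0.05 as higher, and so did 3.40% of all circRNAs tested. The lowest limma adjusted p among the 128 was 0.229. The part of the scan in the larger differences on knockouts 2 and 3 cannot be told apart from that of the mice.

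**Figure D3:**
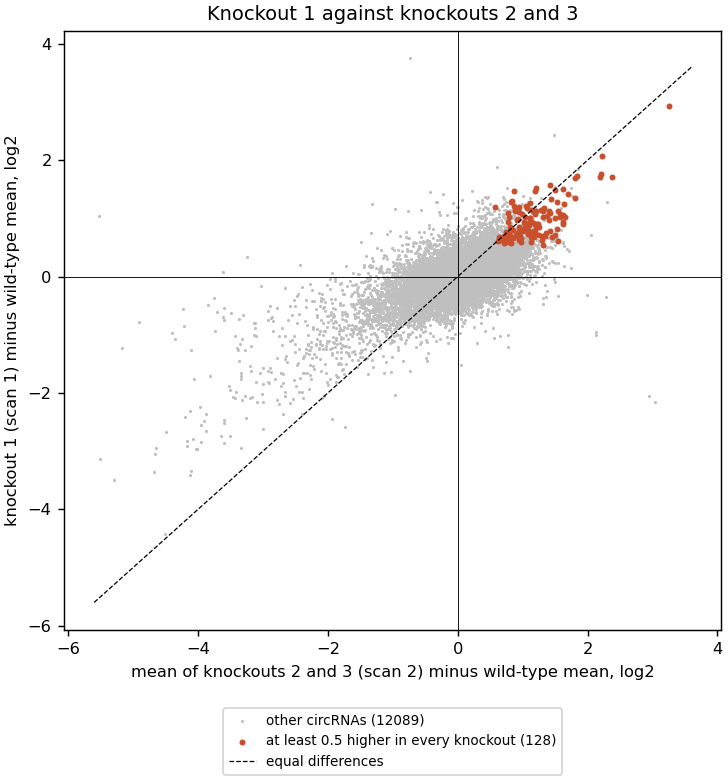
Each point is a circRNA, with the log2 difference of knockout 1 (scan 1) from the wild-type mean on the vertical axis and that of the mean of knockouts 2 and 3 (scan 2) on the horizontal axis. The 128 circRNAs (red) lie between 0.55 and 2.94 on the vertical axis, and 27 of them lie above the dashed line of equal differences.

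Some of the 128 were highest on knockout 1. ASCRP4004202 lay at -1.82, -1.85 and -1.88 in wild type, at -0.66 on knockout 1 and at -1.30 and -1.24 on knockouts 2 and 3. ASCRP4001085 had -0.79 on knockout 1, -1.19 on knockout 2 and -1.58 on knockout 3, against -2.15, -2.11 and -2.50 in wild type. ASCRP4008718 had -1.21 on knockout 1, -1.59 on knockout 2 and -1.77 on knockout 3, against -2.44, -2.53 and -2.51 in wild type. These 3 stood farthest above the other knockouts on knockout 1, by 0.61, 0.60 and 0.47.

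At the other end, ASCRP4003381 lay at -4.09, -3.95 and -3.93 in wild type, at -3.38 on knockout 1 and at -2.43 and -2.45 on knockouts 2 and 3. Knockout 1 thus covered 0.39 of the difference seen on the arrays of scan 2. ASCRP4012098 lay at -3.15, -3.36 and -2.94 in wild type, at -2.43 on knockout 1 and at -1.73 and -1.56 on knockouts 2 and 3. ASCRP4000771, described above, was the third of these, and its knockout 1 value was 0.55 above the wild-type mean, the smallest such distance of the 128.

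Probes bind their targets with different strength, so the signal of a probe is used here only to say how far it stood from background, not how much circRNA there was. By wild-type mean, 35 of the 128 lay below -3, 58 between -3 and -1, and 35 above -1. These were 1.51% of 2319, 1.25% of 4629 and 0.66% of 5269 circRNAs that could pass in the same classes. The median difference was 1.10, 1.01 and 1.03 in these classes. On knockout 1 alone it was 1.00, 0.90 and 0.81, and on knockouts 2 and 3 it was 1.18, 1.08 and 1.11.

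**Figure D4:**
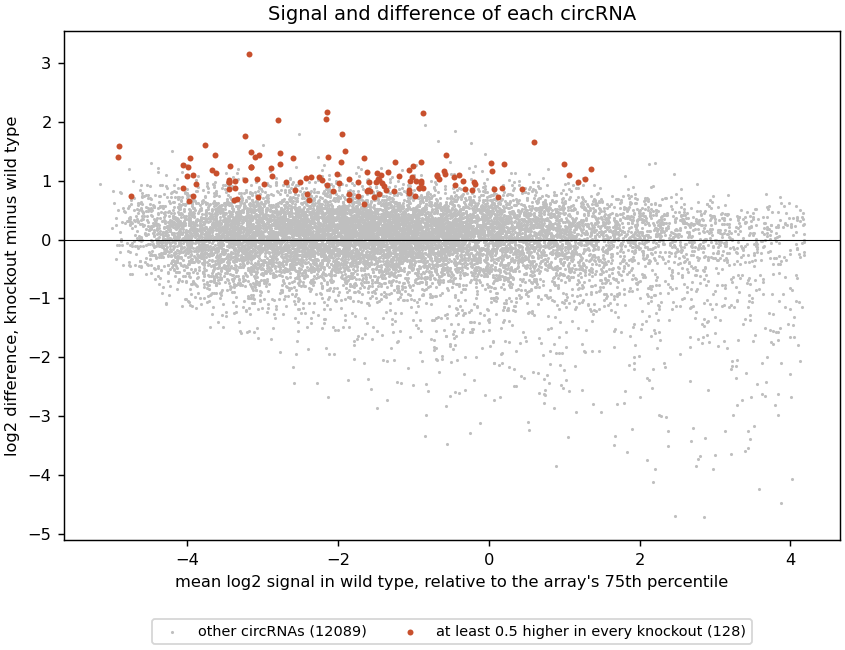
The mean log2 signal in wild type is on the horizontal axis and the log2 difference of knockout minus wild type on the vertical axis, for the 12217 circRNAs that could pass. The 128 (red) lie between -4.91 and 1.36 in wild-type signal and between 0.61 and 3.15 in difference.

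Each circRNA had 1 spot per array, and the error of a spot was read from probes with several spots. The median SD between spots of such a probe, by array, was 0.13 to 0.18 for probes below -3, 0.06 to 0.13 between -3 and -1, and 0.03 to 0.05 above -1. These medians rest on 16 to 29, 5 to 9 and 23 to 29 probes per array, so the middle class is the least well founded. The scanner software gives its own error for each spot. Combined for the lowest knockout and the highest wild-type spot, it was 0.20 to 0.34 on the log2 scale. As the rule asks for a gap of at least 0.5, it sets most gaps above 2 of these errors, and the error covers the spots and not the spread between mice. The gap was under 2 errors for ASCRP4001375, at -3.97, -3.91 and -3.89 in wild type and -3.34, -2.97 and -3.24 in knockout, with a gap of 0.55 and a spot error of 0.27.

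The dimmest of the 128 by wild-type mean were ASCRP4002249, ASCRP4010915 and ASCRP4013764. ASCRP4002249 gave 10.5, 12.8 and 9.40 intensity units in wild type and 26.8, 57.4 and 27.0 units in knockout. ASCRP4013764 gave 12.9, 15.3 and 9.06 units in wild type and 24.3, 29.3 and 21.0 units in knockout. The local background beside the spots of the 128 had a median of 23, 20 and 19 units on the wild types and 18.5, 22 and 21 units on the knockouts, within 0.5 units of that of all circRNAs on every array. It is a raw signal, while the processed signal above is already corrected for background, so the units are not to be set against each other. Probes that the array names as negatives and that stayed near background had medians of -7.51, -7.49 and -6.99 on the wild types and -7.06, -8.45 and -8.00 on the knockouts. That floor was lowest on the arrays of scan 2, and its part in the values of the dim circRNAs was not tested.

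The brightest by wild-type mean were ASCRP4004595, ASCRP4014017 and ASCRP4012906. ASCRP4004595 gave 1128, 1054 and 489 intensity units in wild type and 1688, 3549 and 2105 units in knockout. Relative to the 75th percentile it lay at 1.49, 1.50 and 1.08 in wild type and 2.14, 2.88 and 2.67 in knockout, a difference of 1.21 (2.31-fold). ASCRP4014017 lay at 1.54, 1.61 and 0.66 in wild type and 2.20, 2.33 and 2.37 in knockout. ASCRP4012906 lay at 1.36, 1.24 and 0.96 in wild type and 1.92, 2.29 and 2.32 in knockout. None of these spots was saturated. In all 3, wild type 3 was the lowest wild type and knockout 1 the lowest knockout.

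The 128 spots were spread over the array. The upper left, upper right, lower left and lower right parts held 34, 26, 40 and 28 of them, or 26.6%, 20.3%, 31.3% and 21.9%, and each held 24.7% to 25.3% of all circRNAs that could pass. The other circRNA spots within 2 rows and 2 columns of each of the 128 had a median difference of 0.06 between genotypes, with neighbourhoods from -0.30 to 0.36. The spots around the 128 were thus near the median of 0.06 over all circRNAs.

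The steps were of like size after quantile normalization, and smaller in the authors' deposited table and after normexp. After quantile normalization the median difference was 1.03, all 128 had separate genotypes and 123 kept a gap of at least 0.5, where 19.1% and 1.23% of all that could pass did so. In the authors' deposited table the median difference was 0.88. All 128 were separate there and 70 had a gap of at least 0.5, against 20.5% and 0.753% of all. After normexp background correction with an offset of 50 and 75th percentile scaling, the median difference was 0.66. Then 107 were separate and 34 had a gap of at least 0.5, against 11.7% and 0.286% of all. After normexp with quantile normalization the median was 0.71, with 128 separate and 36 at a gap of at least 0.5, against 18.7% and 0.409%. With the processing used here, 17.4% of all that could pass were separate with the knockouts above.

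The dim circRNAs lost most under normexp, which was run on the median signal of each spot and adds a constant to it. For the 35 below -3 the median difference went from 1.10 to 0.35, for the 58 between -3 and -1 from 1.01 to 0.65, and for the 35 above -1 from 1.03 to 0.87. The 21 whose genotypes then overlapped all had a wild-type mean below -3. ASCRP4010915 went from 1.59 to 0.20 and ASCRP4002249 from 1.41 to 0.16, and ASCRP4013764 went from 0.75 to -0.02. ASCRP4012247, far above background, kept 1.57 of its 1.66, and ASCRP4004595 kept 1.20 of 1.21. A gap of at least 0.5 under all 4 of these other processings was left for 33 of the 128.

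**Figure D5:**
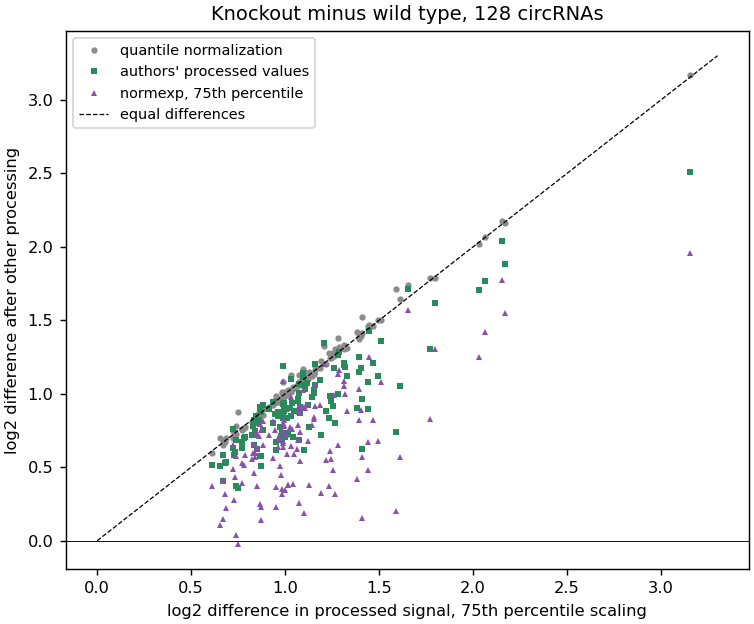
For each of the 128 circRNAs the log2 difference of knockout minus wild type used here is on the horizontal axis, and the difference after quantile normalization, in the authors' processed values and after normexp on the vertical axis. Medians are 1.03, 0.88 and 0.66, and 1 circRNA, ASCRP4013764, lies below 0 after normexp.

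In the authors' deposited table, values are on a log2 scale with an unstated normalization. ASCRP4010314 stood there at 6.36, 6.37 and 5.91 in wild type and 7.60, 8.07 and 8.09 in knockout, a difference of 1.71. The members whose genotypes came closest were ASCRP4001375, ASCRP4012566 and ASCRP4010046. ASCRP4001375 stood at 5.62, 5.43 and 5.41 in wild type and 5.71, 6.11 and 5.74 in knockout, a gap of 0.10. ASCRP4012566 had a gap of 0.19 and ASCRP4010046 a gap of 0.21. All 3 lay below -3 in wild type by the scaling used here. ASCRP4010046 was at -3.60, -3.95 and -4.20 in wild type and -2.75, -2.94 and -2.77 in knockout.

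The limit of 0.5 does not mark a natural break. Just inside it, ASCRP4004894, ASCRP4000528 and ASCRP4011531 each had a gap of 0.50. ASCRP4004894 lay at -1.17, -1.07 and -0.92 in wild type and -0.42, -0.13 and -0.09 in knockout. ASCRP4000528 lay at -1.26, -1.20 and -1.63 in wild type and -0.70, -0.45 and -0.38 in knockout, and ASCRP4011531 at -0.14, -0.26 and -0.28 against 0.36, 0.71 and 0.78. Just outside, ASCRP4002904, ASCRP4013303 and ASCRP4000811 had gaps of 0.499, 0.499 and 0.497. ASCRP4002904 differed by 1.61 between the means, more than most of the 128, because its knockouts lay at -2.28, -1.05 and -0.83. With a gap of 0.25, 587 circRNAs would pass, and with a gap of 1, 9 would.

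Probes with a gap of at least 0.5 that were left out by the background filter numbered 16, and 1 more had an outlier spot on an array. Of the 16, 8 were well above background on all 3 knockouts and 7 on no wild type. Their median difference was 1.32, from 0.89 to 2.10. None of the 300 brightest probes had a gap of at least 0.5 upward.

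The same rule turned downward found 217 circRNAs, 1.78% of all that could pass. Their median difference was -1.43, against 1.03 for the 128, and their median wild-type SD was 0.34, against 0.22. By wild-type signal, 21 of the 217 lay below -3, 49 between -3 and -1 and 147 above -1, where the 128 had 35, 58 and 35. The wild types are the lower group of the 128 and the upper group of the 217. Part of the contrast in wild-type signal is therefore set by the rules. A probe already dim in wild type is also less likely to stay well above background in a lower knockout. These lists were both cut from the same 6 arrays, and the contrast between them was not tested.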

How the data were processed

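The scanner files hold 1-colour intensities from Agilent Feature Extraction 11.0.1.1, already corrected for background and spatial trend, per the file headers. The series table holds log2 values as the authors deposited them. Its direction and scale follow the scanner values, and no source used here gives its normalization. Feature Extraction and limma are the tools in the submitters' processing notes. Outlier spots were left out, and each array's 75th percentile over the remaining circRNA spots was taken as its scale. The 128 circRNAs, the lists and the named items were chosen with earlier results of these data known. Named were all limma calls among them, the 12 largest gaps, 3 at each extreme of signal and of knockout 1, those nearest the limit and the 3 with the smallest gap in the authors' values; ASCRP4011368 and ASCRP4011706 were added after their values were seen.

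Circular RNA probes well above background on at least 3 of 6 arrays were fitted in limma 3.58.1 by lmFit and eBayes (under R 4.3.3 with statmod 1.5.0), genotype as the term, two-sided, Benjamini-Hochberg adjusted over all 13396. The fit and the rule were tested on simulated data. Figures used matplotlib 3.10.9 in Python 3.11.15. The number of arrays limits the precision. Host genes were not analysed here, so the lists of circRNA hosts and of circRNA biogenesis factors were not used.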

Additional observations from a re-analysis of the deposited data

Results flagged for a closer look

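The array carries 15 probes named as negatives, and on each of the 6 arrays 4 of these stood well above background, although the comparisons above use none of them. The one with the highest mean, MM9NEGATIVE016, lay at -3.09, -3.32 and -3.31 in wild type and -3.48, -3.36 and -3.65 in knockout. Of the 128 circRNAs, 93 were above this probe on every array and 18 were below it on every wild type. The 4 negative probes differed by -0.89 to -0.02, knockout minus wild type. The genotypes overlapped in MM9NEGATIVE008 and MM9NEGATIVE017 and were separate in MM9NEGATIVE015 and MM9NEGATIVE016. Whether such unspecific signal had a part in the dim circRNAs was not tested.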

How the results depend on the processing

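The count of 128 was 35 after normexp with the 75th percentile, 49 after normexp with quantile normalization, 587 with a gap of 0.25 and 9 with a gap of 1. Leaving out 1 array, which loosens the rule, gave 158 to 642, the highest without knockout 1, where scan and genotype divide the arrays identically. It stayed within 1.5 times of 128 under the other settings, from 92 in the authors' values to 150 after quantile normalization; 1 of these settings, the 75th percentile with outlier spots in it (133), was chosen after seeing the data. The median difference of 1.03 was 0.66 after normexp with the 75th percentile, 0.71 after normexp with quantiles, 0.88 in the authors' values, and 0.89 with the scan as a block and within scan 1. It was 0.77 with a gap of 0.25, 1.66 with a gap of 1, and 0.94 to 1.11 with 1 array left out.

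Limma's 6 higher calls, all among the 128, were 1 after quantile normalization and 0 after normexp with quantile normalization, with the scan block and within scan 1, where 1938, 455 and 495 of all circRNAs had an unadjusted limma p under 0.05 as higher, 126, 120 and 119 of the 128 among them by their selection. After normexp with the 75th percentile 56 of the 128 and 89 of all circRNAs were called, and with no background filter 0 of all were called, with 1554 at an unadjusted limma p under 0.05. With 1 array left out 0 to 117 of the 128 and 0 to 715 of all were called. With the replicate number as a block 32 of the 128 and 47 of all were called. Whether the numbers pair the mice is not given in the sources used here. Deviations from the genotype mean correlated at 0.19, -0.04 and 0.21 between mice of the same number, and at -0.41 to 0.23 between mice of different number. With so few mice, these values cannot settle it. Where not stated, the cause of a change was not tested. ASCRP4013764 turned from 0.75 to -0.024 after normexp with the 75th percentile. Over the 29 named circRNAs, 384 values moved by less than 1 SD, 79 by more, and 1 reversed. The 384 are no measure of robustness, as some settings could not move a value by 1 SD. The replicate block leaves the differences unchanged, and leaving out 1 array shifts a mean by less than 1 SD. The scan block and the fit within scan 1 give the same differences, counted in each. After normexp with the 75th percentile 21 moved by more, 1 reversed and 7 moved by less. After normexp with quantile normalization 19 moved by more and 10 by less, and after quantile normalization alone 0 by more.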
